A study of Mus musculus with 4 samples.

Results

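Mesenchymal stem cells (MSC) are stromal cells that grow on plastic and can be led to form bone, fat or cartilage. Bone formation from such cells is run by a short cascade of regulators. Runx2 and the zinc finger factor Sp7 (osterix) commit a cell to the osteoblast lineage, the Dlx and Msx homeobox factors act on these genes and on genes further down, and the early products include the alkaline phosphatase Alpl, the secreted matrix protein Spp1 (osteopontin) and the parathyroid hormone receptor Pth1r. The description below takes these regulators and early bone genes, 9 in all, and every probe set that the platform annotation gives to exactly 1 of them. That rule found 10 probe sets for 7 of the genes, or 7 of 18193 genes so annotated, out of 45037 probe sets on the array. Runx2 and Spp1 are not analysed here.

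The values come from 4 lines of C57BL/6 mouse MSC, 2 isolated from bone marrow and 2 from flushed colon, with 1 Affymetrix array each, numbered here by their replicate labels. No transgene, deletion or treatment is named for any of them. The lines were isolated with collagenase and by their fast adherence to plastic. They were kept in low glucose DMEM with 10% serum, with no bone-inducing medium named, until lysis at passage 5 to 10. Each array is labelled a biological replicate with no animal named, so p-values measure only the spread between these lines. Intensities have no fixed unit and are compared between arrays only, for a probe set or for the sum over a fixed set of them. Because the RNA is from whole cultures, fewer cells of a type and less RNA per cell cannot be told apart.

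The arrays were alike in brightness, with medians between 53.7 and 55.7. Of 10 markers of MSC, 9 had a probe set. Among them, Pdgfra gave 1609 and 2493 in the bone marrow lines and 492 and 743 in the colonic lines. Vcam1 was at 266 in colonic line 2 and between 2206 and 2535 elsewhere. Eng lay between 330 and 1323 and Nt5e between 27.6 and 209. Cd44 lay between 4867 and 8532 and Pdgfrb between 3377 and 5042 on the 4 arrays, while Thy1 gave 32.8 and 22.0 in the bone marrow lines and 4516 and 9032 in the colonic lines, and Lepr, a marker of marrow stroma, lay between 61.4 and 62.9 everywhere. Among 10 macrophage markers the summed intensity was 4291 and 1441 in bone marrow lines 1 and 2 and 6944 and 2252 in colonic lines 1 and 2. The defining markers Ptprc and Adgre1 gave at most 32.1 and Tyrobp at most 2.15, whereas Cd14 lay between 573 and 963, Csf1r between 148 and 324, and Ctsk reached 5285 in colonic line 1 and 682 in colonic line 2. Smooth muscle markers, 5 in number, summed to 33993 and 23387 in bone marrow and to 43610 and 37617 in colon, with Acta2 between 15980 and 17010 on every array. Adipocyte markers, 6 with a probe set, summed to 8977 and 12506 against 1321 and 9050. Among these, Fabp4 was at 5157 and 4901 against 460 and 112 and Cebpa at 872 and 631 against 18.3 and 35.1, while Adipoq gave at most 73.8. The 7 cartilage markers summed to 1639 and 1476 against 246 and 1642, with Col2a1 at 998 and 1173 against 19.3 and 1487, Col10a1 at 209 and 85.3 against 41.8 and 30.0 and Acan at most 11.1. The 6 epithelial markers summed to 6369 and 5311 against 2134 and 228, mostly Krt19 except in colonic line 2, with Epcam at most 19.6. The 5 endothelial markers summed to 132 and 100.4 against 239 and 177, with Kdr at 91.1 and 68.9 in colon and Pecam1 at most 2.48.

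RefSeq promoter sequences on GRCm38.p6 were found for 4 of the 7 measured genes (Alpl, Msx1, Msx2 and Pth1r). Those of Msx1 and Msx2 are shown because these paralogues code for closely related homeodomain repressors, and the tissues did not overlap in the brighter probe set of Msx1 but overlapped in that of Msx2. Each is the 250 bases before the annotated start of the gene, read 5′ to 3′ on the minus strand, at chr5:37824586-37824835 for Msx1 and at chr13:53472781-53473030 for Msx2. Capitals mark a match to any of 3 motifs searched on both strands: TGTGGT, bound by Runx factors, and TAATTG and TAATTA, bound by Dlx and Msx homeodomains.
Msx1: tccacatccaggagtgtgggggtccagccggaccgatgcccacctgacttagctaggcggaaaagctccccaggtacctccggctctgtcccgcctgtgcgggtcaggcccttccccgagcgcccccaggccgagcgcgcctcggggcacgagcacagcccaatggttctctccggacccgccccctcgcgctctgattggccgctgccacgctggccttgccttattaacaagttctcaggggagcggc
Msx2: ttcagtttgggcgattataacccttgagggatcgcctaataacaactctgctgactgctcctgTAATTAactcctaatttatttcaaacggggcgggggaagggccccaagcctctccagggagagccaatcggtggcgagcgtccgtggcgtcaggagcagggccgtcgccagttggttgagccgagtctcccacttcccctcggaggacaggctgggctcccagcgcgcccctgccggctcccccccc
The Msx2 window held 1 match, to TAATTA, which begins 187 bases before the start, and the Msx1 window held none. TAATTA was added to the search after the sequences were seen, so this match is a description only. TGTGGT and TAATTG, the motifs planned beforehand, were found in neither window. The 3 motifs do not overlap in these windows. TAATTA was found in 4.84% of all 32851 promoter windows of this length, TAATTG in 7.17% and TGTGGT in 14%. Of the 7 windows of the 4 genes, 6 held none of the motifs, which says only that these letters are not there.

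The comparison asks which of these genes differ between MSC of colon and MSC of bone marrow kept in the same medium. Dlx5 and Sp7 were the members whose tissues lay farthest apart, both with more signal in bone marrow. The adipocyte markers Fabp4 and Cebpa also had more signal in both bone marrow lines. So did the epithelial marker Krt19, at 6223 and 5083 against 1890 and 105. Of the 6 adipocyte markers with a probe set, 3 had log2 differences, colonic minus bone marrow, below 0 and 3 above. Among the latter, Lpl was at 125 and 2410 against 94.6 and 6536. Of the 6 epithelial markers, 5 were below 0 and 1 above, but all except Krt19 gave at most 125. The part of these markers in the Dlx5 and Sp7 values was not tested. Msx1 had about 2-fold more signal in bone marrow in its brighter probe set, while Alpl was dim and alike in both tissues. Msx2 was bright in both tissues in its brighter probe set alone. With limma on log2(intensity + 13.7), 0 of 27022 tested probe sets passed an adjusted p of 0.05 (0%), and 1520 (5.63%) had an unadjusted p below 0.05. Of the 10 member probe sets, 7 passed the filter on low values, a mean over the 4 arrays above 33.3. None of these 7 passed the adjusted threshold, so every difference below is a measured value and not an established change.

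**Figure D1:**
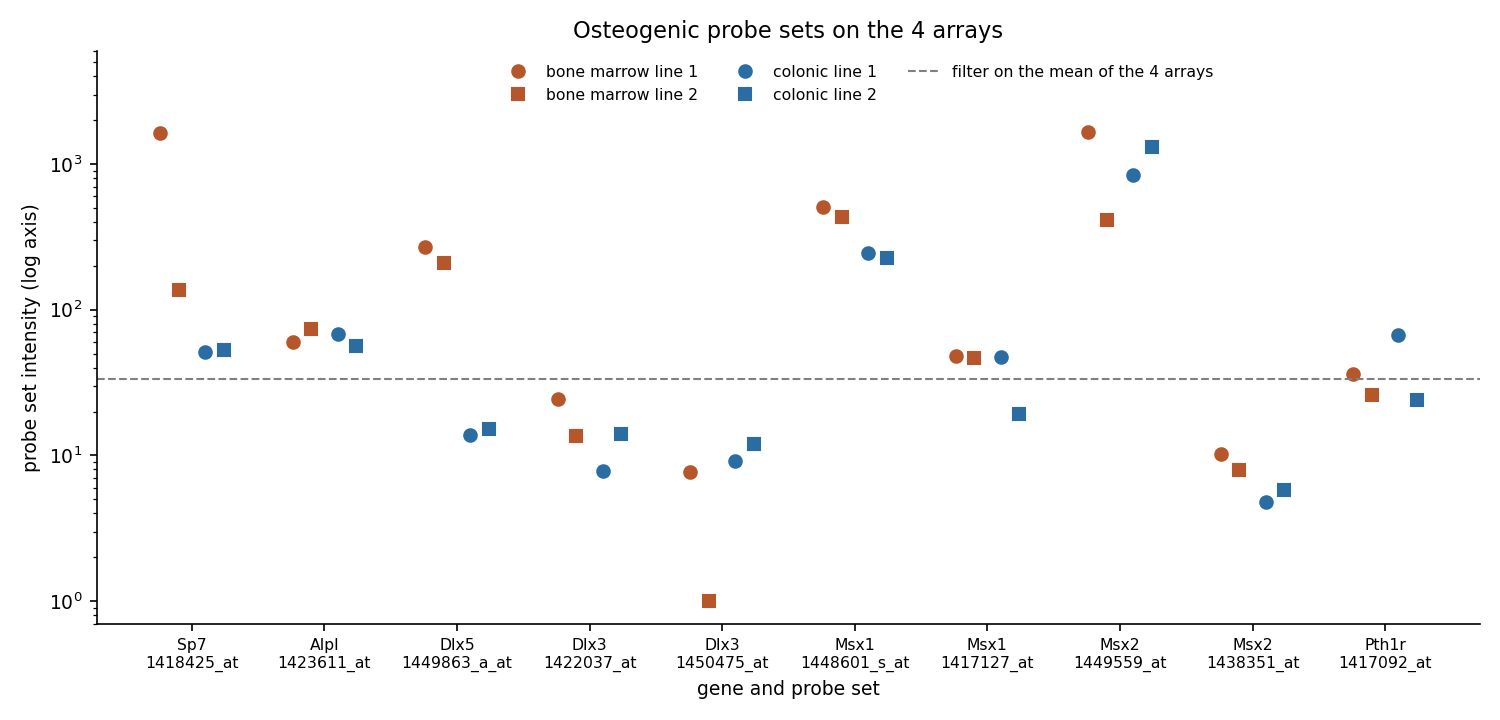
Intensity of each osteogenic probe set (log axis) on the 2 bone marrow arrays (brown) and the 2 colonic arrays (blue), with circles for line 1, squares for line 2 and the filter of 33.3 as a dashed line. Dlx5 is at 268 and 210 in bone marrow against 13.9 and 15.1 in colon, and Sp7 reaches 1629 in bone marrow line 1 alone.

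Sp7, the zinc finger factor without which osteoblasts do not form, was measured by 1418425_at. It stood at 1629 and 137 in bone marrow lines 1 and 2 and at 51.2 and 53.1 in colonic lines 1 and 2. Both bone marrow lines were above both colonic lines, but bone marrow line 1 was 11.9-fold above line 2, while the colonic lines were within 1.04-fold of each other. The log2 difference, colonic minus bone marrow, was -2.92 ± 1.16 (SE, n = 2 and 2 lines), with a 95% interval from -5.96 to 0.13 and a limma adjusted p of 0.902. It was -1.19 without bone marrow line 1 and -4.64 without bone marrow line 2, so its size rests on which marrow line is used. Among all tested probe sets, 0.666% had bone marrow lines as far apart as those of Sp7.

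Dlx5, a homeobox activator of osteoblast genes, was measured by 1449863_a_at at 268 and 210 in bone marrow and at 13.9 and 15.1 in colon. The tissues did not overlap, and the lines of each tissue lay close together, within 1.28-fold in bone marrow and 1.09-fold in colon. The log2 difference was -3.15 ± 0.27 (SE, n = 2 and 2 lines), with a 95% interval from -3.86 to -2.45. Its unadjusted p of 1.21e-04 was the 39th lowest of the 27022, and its limma adjusted p was 0.0842. Over the alternative settings the limma adjusted p ran from 0.0728 to 0.442. The colonic values lie near the floor and below the filter of 33.3, so the probe set passed it through bone marrow alone, and without a filter the limma adjusted p was 0.145. The size of the difference depends on the pseudocount, being -3.94 with a pseudocount of 1 and -2.08 with the table median of 54.6.

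The paralogue Dlx3, a homeobox factor of bone, tooth and skin appendages, had 2 probe sets, both below the filter. In 1422037_at the intensities were 24.4 and 13.7 in bone marrow against 7.82 and 14.0 in colon, and in 1450475_at they were 7.66 and 1 against 9.11 and 11.97. The first had its highest value in bone marrow line 1 and overlapping tissues, and the second had both colonic lines above both bone marrow lines. In a fit of all probe sets without a filter, their log2 differences were -0.40 ± 0.26 and 0.45 ± 0.23 (SE, n = 2 and 2 lines), so the probe sets had opposite signs at intensities near the floor.

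Msx1, a homeobox repressor that keeps mesenchymal progenitors undifferentiated, had 2 probe sets of unequal brightness. The brighter, 1448601_s_at, gave 508 and 431 in the bone marrow lines and 247 and 227 in the colonic lines. The tissues did not overlap, and the lines of a tissue were within 1.18-fold in bone marrow and 1.09-fold in colon. The log2 difference was -0.95 ± 0.31 (SE, n = 2 and 2 lines), with a 95% interval from -1.76 to -0.13, an unadjusted p of 0.0308 and a limma adjusted p of 0.812. The ending _s_at marks, by Affymetrix usage, probes that can match more than 1 transcript. The dimmer probe set, 1417127_at, gave 47.8 and 47.0 in the bone marrow lines and 47.7 and 19.2 in the colonic lines, so that colonic line 2 alone was low, and its log2 difference was -0.44 ± 0.37 (SE).

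Msx2, the paralogue that is a target of BMP signalling in skeletal precursors, gave 1650 and 415 in the bone marrow lines and 845 and 1303 in the colonic lines in 1449559_at. Here the tissues overlapped completely, the highest and the lowest value both being those of bone marrow lines. The log2 difference was 0.33 ± 0.72 (SE, n = 2 and 2 lines), with a 95% interval from -1.57 to 2.23, wide enough to hold differences of over 2-fold in either direction. It was 1.31 without bone marrow line 1 and -0.65 without bone marrow line 2. The other probe set, 1438351_at, gave 10.3 and 7.89 in bone marrow against 4.77 and 5.75 in colon, below the filter, with a log2 difference of -0.26 ± 0.15 (SE) in the fit without one.

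Alpl, the alkaline phosphatase that frees phosphate for mineral, was dim on every array. Its probe set 1423611_at gave 60.5 and 74.1 in bone marrow against 68.5 and 56.3 in colon, close to the array medians. The tissues overlapped, and the log2 difference was -0.09 ± 0.27 (SE, n = 2 and 2 lines), with a 95% interval from -0.79 to 0.61. A difference of 2-fold lies outside that interval on this scale, which understates ratios at dim intensities.

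Pth1r, the receptor through which parathyroid hormone acts on osteoblasts, gave 36.4 and 26.0 in the bone marrow lines and 66.6 and 23.99 in the colonic lines in 1417092_at. The highest and the lowest value were those of the colonic lines, 2.77-fold apart. The log2 difference was 0.30 ± 0.43 (SE, n = 2 and 2 lines), with a 95% interval from -0.83 to 1.44, and it was -0.24 without colonic line 1.

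**Figure D2:**
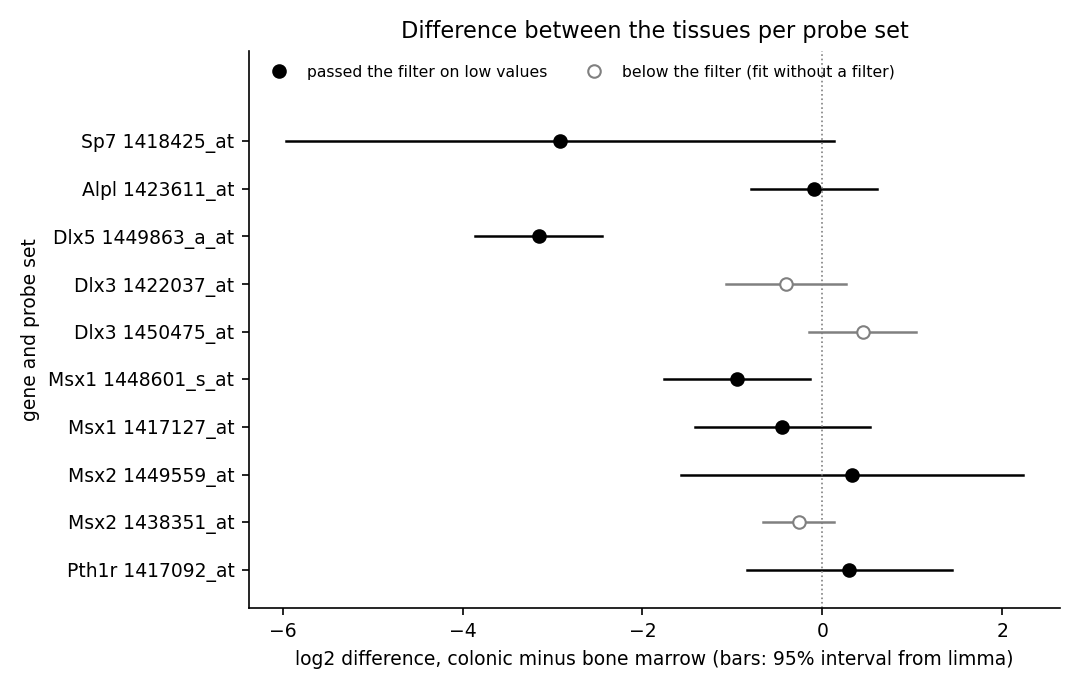
Log2 difference between colonic and bone marrow MSC for each of the 10 osteogenic probe sets, with the 95% interval from limma. Filled points passed the filter and open points are from the fit without a filter. The intervals of Dlx5 (-3.86 to -2.45) and of Msx1 1448601_s_at (-1.76 to -0.13) lie below 0.

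Counted over all 10 probe sets with no filter, 4 had both bone marrow lines above both colonic lines, 1 the reverse and 5 overlapped. Of all 45037 probe sets, 15.8% had bone marrow wholly above colon and 16.9% the reverse. In 2 of the 10, Sp7 and Dlx5, the closest lines were at least 2-fold apart with bone marrow higher, against 0.524% of all probe sets, and in 0 with colon higher, against 0.802%. The median log2 difference of the 10 was -0.33, and that of all probe sets was 4.76e-04. The genes had been proposed with results of these data known, so these counts describe the members and support nothing further.

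The lines of a tissue did not vary alike over the members. Sp7 and Msx2 were both higher in bone marrow line 1 than in line 2, by 3.45 and 1.96 on the log2 scale, against a median difference of 0.31 between these lines over the tested probe sets. A difference as large as that of Msx2 was seen in 2.81% of tested probe sets. Dlx5, Alpl and the brighter Msx1 probe set differed between the bone marrow lines by 0.33, 0.24 and 0.23. Between the colonic lines the largest member difference was that of Pth1r, at 1.09, against a median of 0.35, and 11.4% of tested probe sets differed as much. Markers of other cell types also differed between the bone marrow lines, in both directions. From line 1 to line 2 the smooth muscle marker Cnn1 went from 8623 to 33.0 and the macrophage markers Lyz2 from 1589 to 31.7, Ctsk from 1454 to 352, Cd14 from 810 to 735 and Itgam from 48.4 to 87.7, while the adipocyte marker Lpl went from 125 to 2410. Other markers of the same lists moved less or the other way. The smooth muscle marker Acta2 went from 16513 to 15980 and Actg2 from 8763 to 7332. Among adipocyte markers, Fabp4 went from 5157 to 4901 and Cebpa from 872 to 631, while Pparg rose from 2782 to 4520. The part of cells of these types in the Sp7 and Msx2 values was not tested.

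**Figure D3:**
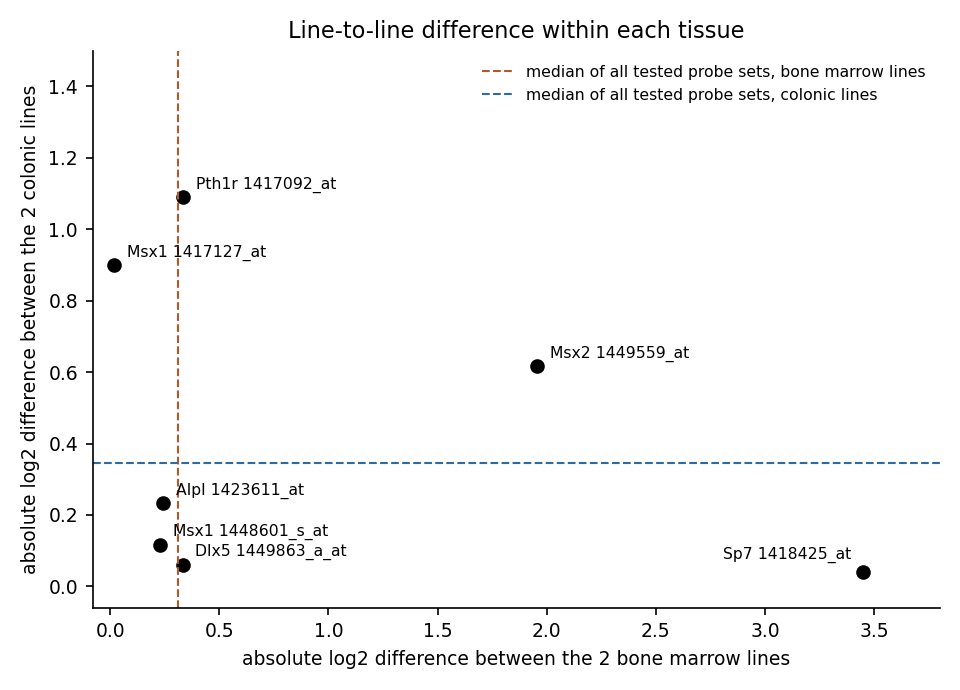
Absolute log2 difference between the 2 bone marrow lines (x axis) and between the 2 colonic lines (y axis) for the 7 osteogenic probe sets that passed the filter, with dashed lines at the medians of all tested probe sets (0.31 and 0.35). Sp7 lies far to the right at 3.45 and Msx2 at 1.96, whereas Dlx5 lies near the origin.

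For the member genes that spanned at least 2 on the log2 scale, Sp7 and Dlx5, the 3 most similar patterns were sought among 12930 genes, by the Euclidean distance between the 4 log2 values after each gene's own mean was removed. Closest to Sp7 were Plb1 (distance 0.218), the vitamin D receptor gene Vdr (0.480) and the secreted Wnt inhibitor gene Wif1 (0.569). Vdr gave 2480 and 330 in the bone marrow lines and 120 and 138 in the colonic lines, and Wif1 gave 518 and 53.6 against 5.30 and 3.99. Like Sp7, both were highest in bone marrow line 1, intermediate in line 2 and low in colon. Within a distance of 1 of Sp7 were 5 genes, and the median gene lay at 3.82. Sp7 spans 4.66 on the log2 scale, so any gene with even values lies far from it. The count and the median therefore reflect that span and do not measure how close the likeness is. Closest to Dlx5 were Tafa1 (0.274), the sulfotransferase gene Chst15 (0.290) and Sned1 (0.313). Chst15 gave 997 and 1018 in the bone marrow lines against 87.9 and 93.7 in the colonic lines. Tafa1 gave 189 and 145 against 9.57 and 11.7, and Sned1 gave 456 and 408 against 25.9 and 28.9. The colonic values of Tafa1 and Sned1 also lie below the filter. Within a distance of 1 of Dlx5 were 22 genes. With 4 arrays such a likeness is a description only.

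The family of the homeobox members was followed through the other Dlx and Msx genes, of which 5 of 5 had a probe set. Of these, 4 passed the filter and were tested, with 0 past the adjusted threshold in either direction. Dlx1 gave 451 and 348 in the bone marrow lines and 49.8 and 232 in the colonic lines, with a log2 difference of -1.72 ± 0.71 (SE), and colonic line 2 lay nearer to bone marrow than to colonic line 1. Dlx6, the chromosomal neighbour of Dlx5, was at 59.4 and 44.1 against 39.3 and 27.7. Its log2 difference was -0.47 ± 0.28 (SE). Its tissues did not overlap, but at these dim intensities the closest lines were only 0.13 apart on the log2 scale. Dlx2 ranged from 379 to 606 and Msx3 from 35.4 to 47.3, each with overlapping tissues. The median log2 difference of the 5 genes was -0.20, beside 0.01 over all 18193 genes, each taken by its brightest probe set.

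Partners and regulators of Runx2 had 15 of 17 genes with a probe set, 0 past the adjusted threshold in either direction and a median log2 difference of -0.01. With an unadjusted p below 0.05, 3 were lower in colon and 0 higher, beside 2.47% and 3.16% of all tested probe sets. Snai2, a zinc finger factor of mesenchymal cells, gave 6622 and 6198 in the bone marrow lines and 3691 and 4206 in the colonic lines. Sox9, the cartilage factor that restrains Runx2, was at 323 and 96.5 against 63.8 and 21.1, again with bone marrow line 1 highest. Smad5, a transducer of BMP signals, was at 3096 and 3091 against 1993 and 2275, with a log2 difference of 0.07 in another probe set. Here and below, such a value is the one nearest 0 among the gene's other probe sets that passed the filter. Twist2, which holds back Runx2, was at 421 and 1205 against 2092 and 1818, and its log2 difference of 1.43 ± 0.55 (SE) did not pass.

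The BMP list, of ligands, receptors and early targets of a signal that acts above Dlx5 and Msx2, had 12 of 12 genes with a probe set. Of these, 10 passed the filter and were tested, with 0 past the adjusted threshold. The median log2 difference of the 12 was -0.04. Bmp4, a bone-inducing ligand, gave 1546 and 1136 in the bone marrow lines and 134 and 20.6 in the colonic lines, a log2 difference of -4.23 ± 0.76 (SE) with a limma adjusted p of 0.362. Bmp6 was at 27.2 and 23.5 against 57.3 and 29.4, near the floor. The receptor gene Bmpr1b gave 256 and 17.3 in the bone marrow lines and 692 and 118 in the colonic lines, so line 1 exceeded line 2 in both tissues. Id2, an early target of BMP signals, ranged from 1630 to 2882 with overlapping tissues.

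Late osteoblast and bone matrix genes, the products of the cascade, had 13 of 15 genes with a probe set. Of these, 10 passed the filter and were tested, with 0 past the adjusted threshold. None of the 10 had a limma unadjusted p below 0.05, beside 5.63% of all tested probe sets. The median log2 difference of the 13 was 0.16. Omd, osteomodulin, gave 1842 and 168 in the bone marrow lines and 317 and 10.8 in the colonic lines, and Pdpn, podoplanin, gave 5364 and 223 against 6174 and 5313. In both, as in Sp7, bone marrow line 1 was far above line 2. Unlike Sp7, Omd also had colonic line 1 far above colonic line 2, and Pdpn was high in both colonic lines. Postn, periostin, was at 9309 and 3307 against 10779 and 10913, and Sparc, osteonectin, lay between 13438 and 16334 on all arrays. Ibsp, bone sialoprotein, lay between 42.5 and 58.9, and Dmp1, a gene of osteocytes, was at 206 in colonic line 1 and at most 6.43 elsewhere. Mineral handling genes beside Alpl had 7 of 9 genes with a probe set, and 0 passed the adjusted threshold. Their median log2 difference was -0.0019. None of the 7 had a limma unadjusted p below 0.05, beside the same 5.63%. The phosphate carrier gene Slc20a2 gave 1124 and 1735 in the bone marrow lines and 2750 and 1966 in the colonic lines, and Mgp, an inhibitor of calcification, gave 6120 and 3836 against 3862 and 2942. The annexin genes Anxa6 and Anxa5 had log2 differences of 0.42 ± 0.24 and 0.12 ± 0.08 (SE).

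Receptors for osteopontin had 9 of 9 genes with a probe set, 0 past the adjusted threshold and a median log2 difference of 0.62. All 9 log2 differences were above 0 under the deposited scaling and 8 under quantile normalization, while 48.0% of all genes were below 0. Those of Itgav and Itgb5 were only 0.04 and 0.06, with -0.0071 for Itgav in another probe set. The tissues overlapped in Itgb3, Itgb5, Itga4 and Itga5. The list was chosen with earlier results of these data known, so the signs are a description only. In 2 of the 9, with higher signal in colon, the unadjusted p was below 0.05, beside 3.16% of all tested probe sets. Itga9, an integrin chain, gave 60.1 and 39.6 in the bone marrow lines and 347 and 798 in the colonic lines, a log2 difference of 3.11 ± 0.50 (SE) with a limma adjusted p of 0.279, and of 1.56 in another probe set. Itgb1 was at 5396 and 5338 against 7839 and 6346, Itga8 at 169 and 16.6 against 2269 and 253, and Cd44 at 6043 and 4867 against 8532 and 6512. In Itga8 line 1 was above line 2 in both tissues. The summed smooth muscle markers were also higher in both colonic lines, and their part in these values was not tested.

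The parathyroid hormone pathway beside Pth1r had 7 of 8 genes with a probe set, 0 past the adjusted threshold and a median log2 difference of 0.07. Nr4a2, an immediate target of the hormone, gave 320 and 223 in the bone marrow lines and 2067 and 1359 in the colonic lines, a log2 difference of 2.59 ± 0.38 (SE) with a limma adjusted p of 0.245, but only 0.16 in another probe set. Pde4d, a phosphodiesterase that ends the cyclic AMP signal, was at 795 and 1622 against 418 and 345. Crem was at 220 and 138 against 423 and 300, with a log2 difference of -0.14 in another probe set. Rgs2 was at 276 and 104 against 157 and 5.98, with overlapping tissues and a log2 difference of 0.21 in another probe set.

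**Figure D4:**
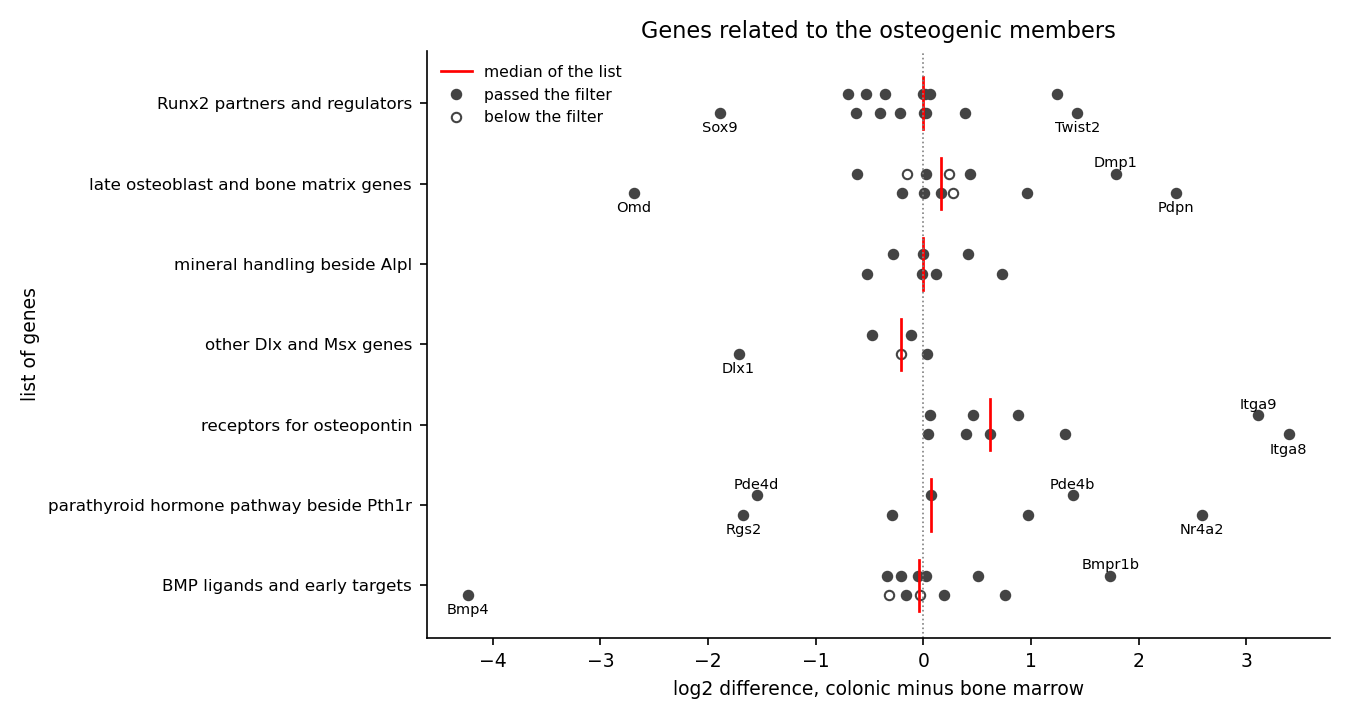
Log2 difference between colonic and bone marrow MSC of each gene in the 7 lists related to the osteogenic members, 1 probe set a gene, with open points below the filter and a red bar at the list median. The medians lie between -0.20 (other Dlx and Msx genes) and 0.62 (receptors for osteopontin), and Bmp4 lies farthest to the left at -4.23.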

How the data were processed

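Amplified and biotin-labelled RNA of 4 MSC lines was run on Affymetrix arrays, per the labels' protocols. The deposited values are probe set intensities, read as linear from their range. How probes were summarised, corrected and scaled is not given in the sources used here. Precision is limited by the number of arrays. Array controls (64) were left out. Of the rest, 34945 probe sets had 1 gene symbol in the platform annotation, 932 several and 9160 none.

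Values were taken as log2(intensity + 13.7), adding 0.25 of the table's median. Probe sets with a mean above the 40th percentile (33.3) were tested with limma 3.58.1 in R 4.3.3 (lmFit, eBayes with an intensity trend, tissue as the only term), two-sided, with Benjamini-Hochberg adjustment over all 27022. It left 2 residual degrees of freedom and was tested on simulated data. An exact permutation test of 2 against 2 arrays cannot go below 0.333, so none is given.

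The members and lists were chosen with earlier results of these data known. Named were all member probe sets, the 4 tested genes of lowest p in each list, and the 3 genes most like Sp7 and Dlx5. Ibsp, Dmp1, the marker values and the motif TAATTA were chosen after values or sequences were seen. Alternatives covered scaling, pseudocount, filter, probe set choice, variance model, replicate block, threshold and each array left out.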

Additional observations from a re-analysis of the deposited data

How the results depend on the processing

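No member probe set passed an adjusted p of 0.05 under any of the alternatives run, and at an adjusted p of 0.1 there was 1, Dlx5, among 54 probe sets in all. The count over all probe sets was 12 with a filter at the 60th percentile, which leaves Dlx5 out, and lay between 0 and 96 with 1 array left out (70 without colonic replicate 1, 96 without colonic replicate 2). Member probe sets with the closest arrays at least 2-fold apart fell from 2 to 1 with the table median as pseudocount and to 1 with the 60th percentile filter, and were 2 to 3 with 1 array left out. Leaving out 1 array moved the log2 difference of Dlx5 between -3.32 and -2.99, of Sp7 between -4.64 and -1.19 and of the brighter Msx1 probe set between -1.06 and -0.83. Over the settings that keep all arrays, the difference of Dlx5 ran from -3.94 (pseudocount 1) to -2.08 (table median). Signs turned only when an array was left out: the ranges were -0.21 to 0.032 for Alpl, -0.89 to 0.0076 for the dimmer Msx1 probe set, -0.65 to 1.31 for Msx2 and -0.24 to 0.85 for Pth1r. The replicate numbers pair nothing in the labels. Deviations of same-numbered arrays correlated with r = 0.139 over probe sets, and with the replicate block 0 probe sets and 0 members passed, the adjusted p of Dlx5 being 0.227. Probe sets near the floor are limited by signal over background.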
